A study of Homo sapiens with 12 samples.

Results

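Phospholipase C enzymes were measured as 9 genes on Affymetrix Hgu133plus2 arrays of PC-9 cells. The 9 genes were PLCB1, PLCB2, PLCB3 and PLCB4 of the beta class, PLCG1 and PLCG2 of the gamma class, PLCD1 and PLCD3 of the delta class, and PLCE1 of the epsilon class. A gene was represented by every probe set that the array annotation assigns to its symbol alone, which gave 22 probe sets for these genes out of 41091 with a single symbol. The main probe set of a gene was the one whose mean over the 12 arrays was highest, and all 9 genes were among the 19775 genes tested. PLCB4 was followed in the study as a target of miR-371-3p, and the other isoforms were compared with it.

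PC-9 is a human lung adenocarcinoma line that depends on mutant EGFR. The 12 arrays held a stable line with a GFP vector and a stable line with the miR-371 precursor (pre-miR-371), each treated for 24 h with DMSO or with erlotinib at 2 μM, which blocks the kinase of EGFR, and each of the 4 groups had 3 arrays. All groups shared the PC-9 background, including its EGFR mutation, and all carried a vector. A single stable line of either kind was assayed, so that an effect of pre-miR-371 and a difference between these particular lines cannot be told apart. Whether the 3 arrays of a group came from separate cultures is not stated in the labels. The paper's statistics section describes its replicates in general as biological, without naming these arrays. The p-values therefore measure only the spread between these samples, which may be technical.

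Phospholipase C cleaves the membrane lipid PIP2 into IP3, which releases calcium from internal stores, and diacylglycerol, which activates protein kinase C. The classes share this reaction and differ in what switches them on: beta enzymes act below receptors coupled to Gq proteins, gamma enzymes bind activated receptor tyrosine kinases such as EGFR, delta enzymes respond to calcium, and PLC epsilon is bound by small GTPases such as those of the Ras and Rap families. Recruitment of PLCG1 by EGFR takes place at the protein level, which mRNA arrays do not measure.

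The pre-miR-371 line carried the miR-371 precursor, and its mature products are shown because PLCB4 was chosen through the 3p product. Sequences are those of RefSeq on GRCh38.p14, with the seed (bases 2 to 8 from the 5′ end) in capitals.
hsa-miR-371a-3p: aAGUGCCGccaucuuuugagugu
hsa-miR-371a-5p: aCUCAAACugugggggcacu
The 3p product lies at chr19:53787716-53787738 and the 5p product at chr19:53787680-53787699, both on the plus strand. The 3p sequence in the study's own miRNA list was identical to the RefSeq sequence. Among 2370 mature miRNA names in the RefSeq table, 1 held the 3p seed, namely hsa-miR-371a-3p itself. Levels of the mature miRNAs were not analysed here.

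Array values were the authors' log2 values. Array medians lay between 4.31 and 4.41, and arrays of the same group correlated at r of 0.996 to 0.997. All 8 epithelial markers were above background in all 4 groups, whereas the leukocyte gene PTPRC was not above background in any group, 4 or 5 of 11 leukocyte markers were above it, and so were 1 or 2 of 6 fibroblast and 2 or 3 of 4 endothelial markers. Background here is the 95th percentile of 82 olfactory receptor genes, between 4.58 and 4.76 in the 4 groups. DUSP6, a phosphatase induced by ERK, served as a check that erlotinib had acted: its log2 level was 9.26 ± 0.14 (SD, n = 3) with DMSO and 3.35 ± 0.26 (SD, n = 3), not above background, with erlotinib in the GFP vector line, which is at least 25.5-fold lower.

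Of the 9 genes, 3 were higher and 2 were lower with erlotinib than with DMSO in the GFP vector line (limma, adjusted p under 0.05), where 26.5% of all genes tested were higher and 23.4% were lower. With pre-miR-371 there were also 3 higher and 2 lower genes, against 24.8% and 22.2% of all genes. With 5 of 9 genes called in each line, the share called was near the background in which about as large a share of all genes was called. Between the lines in DMSO, none of the 9 genes was higher and 1 was lower, against 1.62% and 3.64% of all genes, and between the lines in erlotinib none passed in either direction, against 6.5% and 9.46%. For none of these genes did the response to erlotinib differ between the lines past the test, against 1.44% of all genes with a higher and 0.561% with a lower difference. At an unadjusted p under 0.05 limma gave 0 higher and 2 lower genes between the lines in DMSO, 1 and 1 between the lines in erlotinib, and 1 and 1 for the difference of responses. The median log2 fold change of the 9 genes was 0.04 with GFP vector and 0.01 with pre-miR-371, beside 0.00 and -0.03 over all genes, with called genes on both sides.

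**Figure D1:**
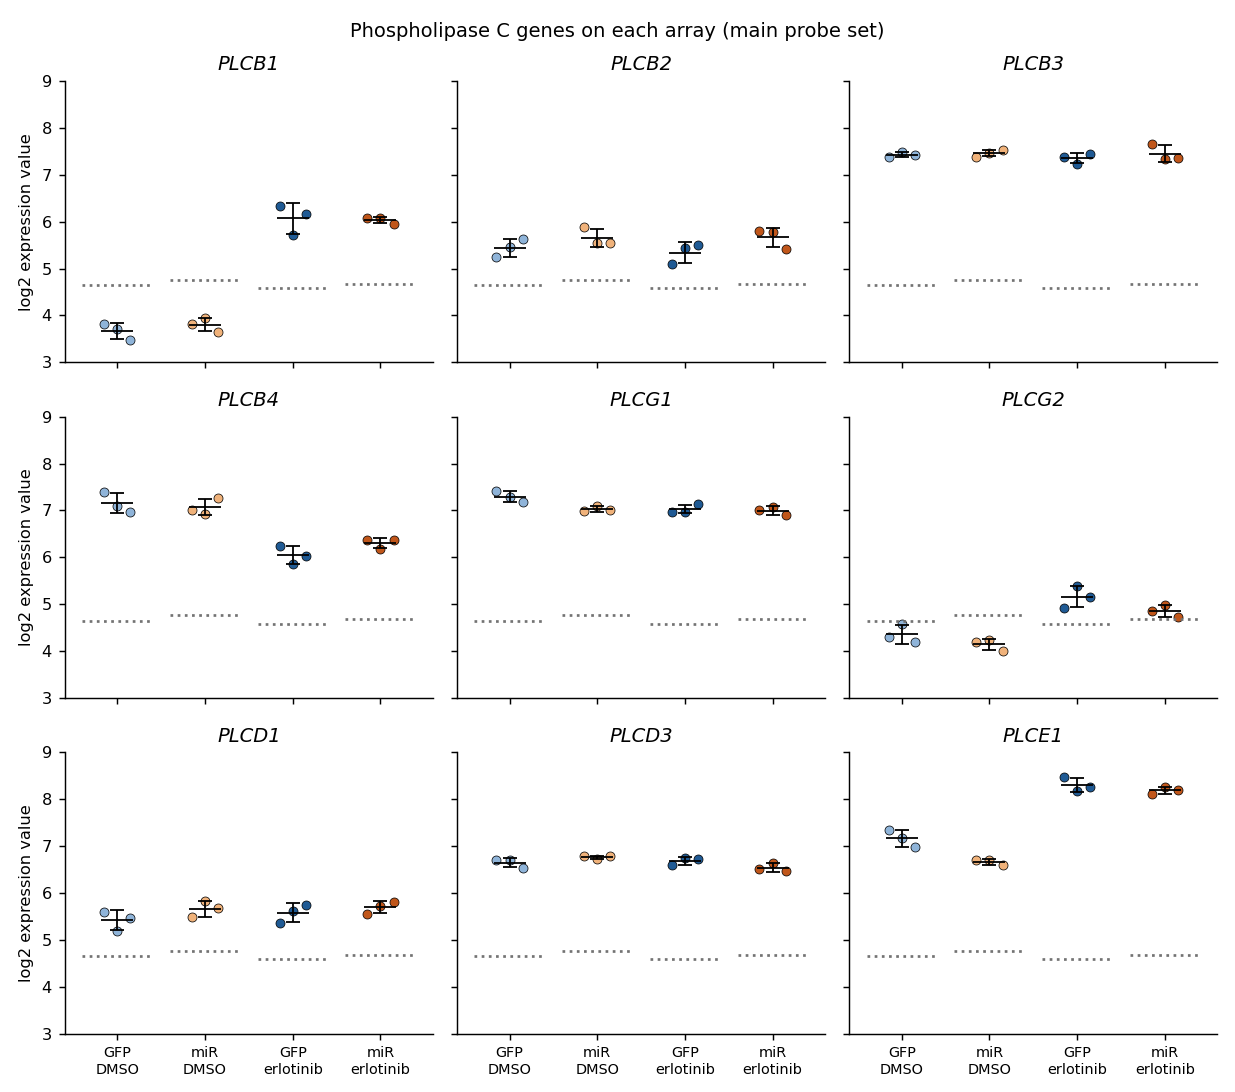
Log2 expression value (vertical axis) of the main probe set of each phospholipase C gene on each array, by group (horizontal axis; GFP, GFP vector line; miR, pre-miR-371 line). Points are arrays, horizontal bars are means with SD (n = 3) and dotted lines are the background level of the group, between 4.58 and 4.76. PLCB1 and PLCG2 lay below the line in DMSO and above it in erlotinib, PLCE1 was higher and PLCB4 was lower with erlotinib in both lines, and levels should not be compared between panels because each is from another probe set.

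PLCB4, a beta isoform activated by Gq, was the gene that fell most clearly with the drug. On the GFP vector arrays its log2 values were 7.40, 7.09 and 6.98 in DMSO and 6.25, 5.86 and 6.04 in erlotinib. On the pre-miR-371 arrays they were 7.01, 6.93 and 7.26 in DMSO and 6.37, 6.17 and 6.36 in erlotinib. Every erlotinib array was below every DMSO array in both lines, while on this probe set arrays of both lines overlapped under either treatment. PLCB4 fell by 1.11 on the log2 scale in the GFP vector line (SE 0.13, limma adjusted p = 1.1e-05), a 2.15-fold lower level. It fell by 0.77 in the pre-miR-371 line (SE 0.13, adjusted p = 0.000298), a 1.70-fold lower level. In bulk RNA, fewer cells with a transcript and less transcript per cell cannot be told apart.

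The second PLCB4 probe set also fell in both lines. Its log2 values were 6.55, 6.54 and 6.09 in the GFP vector line with DMSO and 5.30, 5.38 and 5.44 with erlotinib, a fall of 1.02 (SE 0.12, limma adjusted p = 1.42e-05 over 41091 probe sets). In the pre-miR-371 line they were 6.26, 6.28 and 6.32 with DMSO and 5.88, 5.68 and 5.47 with erlotinib, and the change was -0.61 (SE 0.12, adjusted p = 0.00131). As on the main probe set, DMSO and erlotinib arrays did not overlap in either line. In erlotinib the pre-miR-371 arrays of this probe set were all above the GFP vector arrays, whereas in DMSO the lines overlapped.

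On these arrays, the comparison that bears on PLCB4 as a target of miR-371-3p is that between the lines. From arrays of PC9 cells the paper reports only part of its predicted targets as lower with pre-miR-371. Its text does not say whether PLCB4 was among them. The evidence that the paper gives for PLCB4 itself came from other assays, which were not repeated here. It reports that mutating the recognition site abolished repression of a luciferase reporter. By quantitative PCR it reports lower PLCB4 mRNA with pre-miR-371 and higher PLCB4 mRNA with an inhibitor of the miRNA. In mouse xenografts it reports PLCB4 mRNA up in erlotinib-treated GFP vector tumours and down in erlotinib-treated pre-miR-371 tumours. In drug-tolerant PC9 cells it reports increased expression of PRDX6 and STX12 only. On the present arrays, of cells cultured for 24 h with the drug, PLCB4 fell in both lines. Tumours and drug-tolerant cells differ from these cultures in system or in time. PLCB4 mRNA did not pass the test in DMSO, where pre-miR-371 minus GFP vector was -0.09 (95% confidence interval -0.37 to 0.20, limma adjusted p = 0.734). It did not pass in erlotinib either, where the value was 0.25 (interval -0.03 to 0.54, adjusted p = 0.21), on the side of a higher level in the pre-miR-371 line. On the second probe set PLCB4 was at -0.11 in DMSO (limma adjusted p = 0.676 over 41091 probe sets) and at 0.30 in erlotinib (SE 0.12, adjusted p = 0.145), where its arrays did not overlap. The value in DMSO on the main probe set changed sign without GFP vector DMSO replicate 1, to 0.035, and with quantile normalization repeated, to 0.0019. An exact two-sided permutation test of 3 against 3 arrays, which cannot go below p = 0.1, gave p = 0.6 in DMSO and p = 0.2 in erlotinib. On the main probe set the intervals leave room for a level in the pre-miR-371 line lower by up to 0.37 in DMSO and by up to 0.03 in erlotinib on the log2 scale. Protein was not measured on these arrays. The order of the 4 group means was GFP vector DMSO at 7.15 ± 0.22, pre-miR-371 DMSO at 7.07 ± 0.17, pre-miR-371 erlotinib at 6.30 ± 0.11 and GFP vector erlotinib at 6.05 ± 0.20 (SD, n = 3), and within each treatment the neighbours did not differ past the test. The fall with erlotinib was smaller by 0.34 in the pre-miR-371 line (SE 0.18, adjusted p = 0.424), a difference that did not pass.

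PLCB1 is the closest beta isoform by position, since it and PLCB4 are neighbouring protein-coding genes in the RefSeq annotation, and its mRNA went the other way. Its log2 values on the main probe set were 3.81, 3.72 and 3.47 in the GFP vector line with DMSO and 6.34, 5.71 and 6.17 with erlotinib. In the pre-miR-371 line they were 3.81, 3.94 and 3.66 with DMSO and 6.07, 6.08 and 5.95 with erlotinib. The treatments were far apart in both lines, and the DMSO arrays lay below the background level. The fitted log2 fold changes were 2.40 (SE 0.14, limma adjusted p = 2.54e-08) and 2.23 (SE 0.14, adjusted p = 6.68e-08). Because the DMSO level was not above background, the rise is best given as a bound, at least 2.67-fold in the GFP vector line and at least 2.42-fold in the pre-miR-371 line. The rise rested on 1 of 3 probe sets. The 2 others had group means of 3.52 to 3.73 and 2.65 to 2.97, never above background, and neither passed the test in any comparison.

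The other beta isoforms did not pass the test in any comparison. PLCB2, an isoform best known from blood cells, had group means of 5.34 to 5.67 on its main probe set. Its change with erlotinib was -0.10 in the GFP vector line (95% confidence interval -0.42 to 0.22) and 0.01 in the pre-miR-371 line (interval -0.31 to 0.33). It was 0.32 higher in the pre-miR-371 line in erlotinib, with a limma adjusted p of 0.159, and its second probe set was at background. PLCB3, the broadly expressed beta isoform, was represented by a single probe set whose x_at name marks probes that can bind several transcripts. Its group means of 7.36 to 7.46 spanned less than the SD of 0.18 in the pre-miR-371 erlotinib group, and its changes with erlotinib were -0.07 (interval -0.26 to 0.12) and -0.01 (interval -0.21 to 0.18). The intervals for both genes did not reach the fall of 0.77 or more measured for PLCB4.

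**Figure D2:**
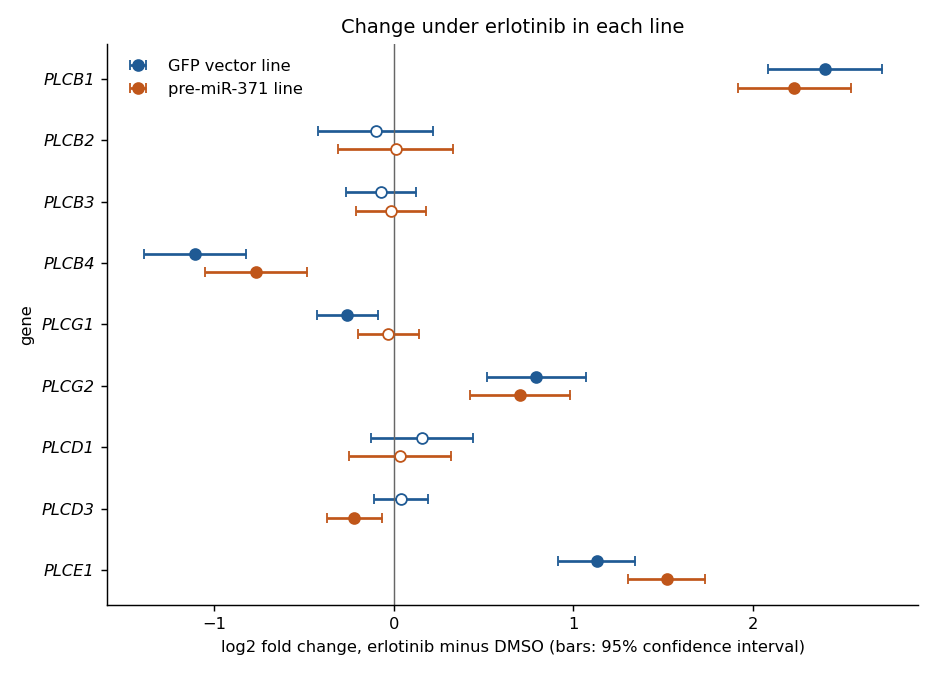
Log2 fold change of each phospholipase C gene, erlotinib minus DMSO (horizontal axis), in the GFP vector line (blue) and the pre-miR-371 line (orange), with 95% confidence intervals from limma. Filled points passed the adjusted p limit of 0.05. PLCB1, PLCE1 and PLCG2 lie to the right and PLCB4 to the left in both lines, while PLCG1 and PLCD3 are filled in 1 line each with changes of -0.26 and -0.22.

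PLCG1, the gamma isoform that activated EGFR recruits, was lower with erlotinib in the GFP vector line by a small amount. Its log2 values in the GFP vector line were 7.41, 7.28 and 7.17 with DMSO and 6.98, 6.98 and 7.14 with erlotinib. In the pre-miR-371 line they were 6.98, 7.10 and 7.01 with DMSO and 7.01, 7.08 and 6.90 with erlotinib. The GFP vector DMSO arrays were thus the highest and did not overlap those of any other group. PLCG1 fell by 0.26 in the GFP vector line (SE 0.08, limma adjusted p = 0.0151). The change in the pre-miR-371 line was -0.03 (interval -0.20 to 0.14), but the difference between the responses, 0.23 (SE 0.11), had an adjusted p of 0.37, so that the lines are not shown to differ in it. Between the lines in DMSO PLCG1 was at -0.26 (SE 0.08, adjusted p = 0.0774), and without GFP vector DMSO replicate 3 it was called at -0.32 (adjusted p = 0.0436). The fall in the GFP vector line was no longer called without GFP vector DMSO replicate 1 (adjusted p = 0.0615), without GFP vector erlotinib replicate 1 (0.0548) or without GFP vector erlotinib replicate 2 (0.0552). The second PLCG1 probe set, above background in all groups with means of 4.68 to 4.90, did not pass in any comparison. It was at -0.05 with erlotinib in the GFP vector line (adjusted p = 0.649 over 41091 probe sets) and at 0.16 between the lines in DMSO (adjusted p = 0.273), the latter opposite in sign to the main probe set.

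PLCG2, the gamma isoform used by B cell and other immune receptors, rose. Its log2 values were 4.30, 4.58 and 4.20 in the GFP vector line with DMSO and 4.93, 5.38 and 5.16 with erlotinib. In the pre-miR-371 line they were 4.20, 4.23 and 4.01 with DMSO and 4.86, 4.98 and 4.72 with erlotinib. Treatments did not overlap in either line, and the erlotinib groups were just above background while the DMSO groups were not. The fitted rise was 0.80 in the GFP vector line (SE 0.13, limma adjusted p = 0.000158) and 0.70 in the pre-miR-371 line (SE 0.13, adjusted p = 0.000482), and as a bound it was at least 1.42-fold and at least 1.06-fold. The other 3 PLCG2 probe sets had group means of 2.34 to 3.05, below background throughout, and did not pass the test in any comparison. With the mean of all 4 probe sets in place of the main one, the rise in the pre-miR-371 line was 0.12 and was no longer called (adjusted p = 0.149). Among leukocyte markers, BTK, a kinase that acts with PLCG2 in B cells, was at 4.01 to 4.10 in the 4 groups and was not above background in any of them, LYZ was at 3.85 with DMSO and 5.23 with erlotinib in the GFP vector line, and LAPTM5 at 7.83 and 6.40. The median log2 level of the 11 leukocyte markers was 4.06 and 4.10 in the GFP vector and pre-miR-371 lines with DMSO, and 4.13 and 4.49 with erlotinib. Their part in the PLCG2 values was not tested.

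**Figure D3:**
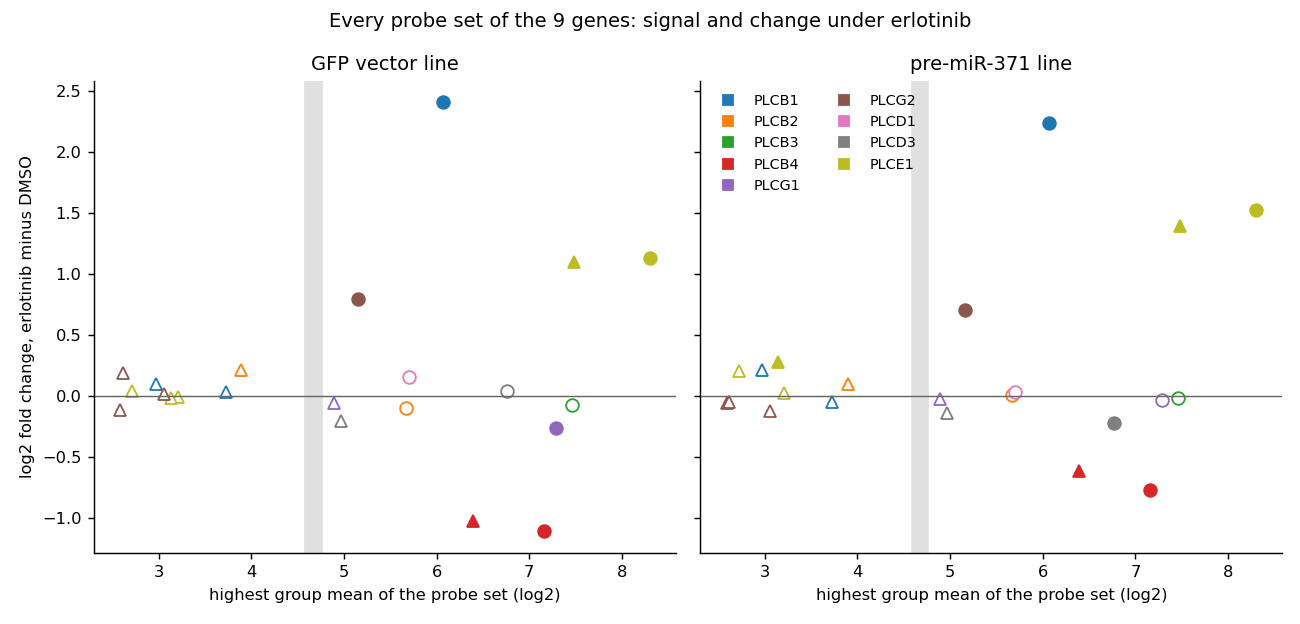
Every probe set of the 9 genes, by its highest group mean on the log2 scale (horizontal axis) and its log2 fold change, erlotinib minus DMSO (vertical axis), in each line. Circles are main and triangles other probe sets, filled symbols passed an adjusted p limit of 0.05 over 41091 probe sets, colours are genes and the grey band spans the background levels of 4.58 to 4.76. The probe sets left of the band lie between -0.12 and 0.28, and the 2 PLCB4 and the 2 brighter PLCE1 probe sets lie together.

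PLCE1, the epsilon isoform, rose with erlotinib and was the only one of the 9 genes that was called between the lines. Its log2 values in the GFP vector line were 7.35, 7.18 and 6.99 with DMSO and 8.47, 8.18 and 8.25 with erlotinib. In the pre-miR-371 line they were 6.71, 6.70 and 6.59 with DMSO and 8.11, 8.26 and 8.20 with erlotinib. The lines were apart on every DMSO array, and they overlapped in erlotinib. The rise with the drug was 1.13 in the GFP vector line (SE 0.10, 2.19-fold, limma adjusted p = 7.31e-07) and 1.52 in the pre-miR-371 line (SE 0.10, 2.87-fold, adjusted p = 6.59e-08). Without drug PLCE1 was lower in the pre-miR-371 line by a log2 difference of -0.50 (SE 0.10, 1.42-fold lower, adjusted p = 0.0162), and in erlotinib the difference was -0.11 (interval -0.33 to 0.10, adjusted p = 0.483). The responses differed by 0.39 (SE 0.14), which did not pass over all genes (limma adjusted p = 0.206). The order of group means was pre-miR-371 DMSO at 6.67 ± 0.07, GFP vector DMSO at 7.17 ± 0.18, pre-miR-371 erlotinib at 8.19 ± 0.08 and GFP vector erlotinib at 8.30 ± 0.15 (SD, n = 3), of which the last pair did not differ past the test.

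A second PLCE1 probe set gave log2 values of 6.41, 6.42 and 6.33 in the GFP vector line and of 5.94, 5.85 and 5.85 in the pre-miR-371 line with DMSO. The lines were again apart, at -0.51 (SE 0.06, limma adjusted p = 0.0019 over 41091 probe sets). In erlotinib its values were 7.54, 7.48 and 7.44 with GFP vector and 7.32, 7.27 and 7.23 with pre-miR-371. The lines did not overlap there either, unlike on the main probe set, and the difference of -0.21 was short of the limit (SE 0.06, adjusted p = 0.0514). It rose by 1.10 and 1.40 with erlotinib in the GFP vector and pre-miR-371 lines (adjusted p = 1.15e-08 and 1.94e-09). The 3 remaining PLCE1 probe sets were below background in all groups, with group means of 2.51 to 3.21. One of these passed the test with erlotinib in the pre-miR-371 line (0.28, adjusted p = 0.0367), at a level where no fold is given. On the main probe set the difference between the lines in DMSO was not called without GFP vector DMSO replicate 1 (adjusted p = 0.0547), without GFP vector DMSO replicate 2 (0.0547) or without pre-miR-371 DMSO replicate 3 (0.0717), with values of -0.42, -0.50 and -0.47. It was also not called when only the groups compared were fitted (adjusted p = 0.0648), by the methods' t-test after Benjamini-Hochberg adjustment over all genes (adjusted p = 0.16), or when a fold over 1.5 was required as well.

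PLCE1 and PLCG2, which both rose, are 2 of 5 isoforms with a promoter in the RefSeq table, and their promoters are shown because these genes moved the same way. Each runs from 250 bases before to 50 bases after the start of the gene, on the plus strand of GRCh38.p14, with matches to GTAAACA in capitals.
PLCE1 promoter, chr10:94088776-94089075: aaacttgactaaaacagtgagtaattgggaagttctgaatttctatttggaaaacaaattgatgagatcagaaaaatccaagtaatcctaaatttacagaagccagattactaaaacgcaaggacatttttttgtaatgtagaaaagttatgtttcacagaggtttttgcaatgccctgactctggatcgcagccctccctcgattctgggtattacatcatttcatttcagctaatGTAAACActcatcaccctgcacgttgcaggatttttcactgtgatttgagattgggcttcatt
PLCG2 promoter, chr16:81738791-81739090: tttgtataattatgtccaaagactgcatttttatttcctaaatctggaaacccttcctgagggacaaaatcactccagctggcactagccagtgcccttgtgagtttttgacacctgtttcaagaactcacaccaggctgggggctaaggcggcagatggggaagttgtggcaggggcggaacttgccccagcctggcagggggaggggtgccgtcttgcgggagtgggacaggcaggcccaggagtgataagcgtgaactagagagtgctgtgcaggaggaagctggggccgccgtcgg
These promoters differed in base composition. G and C made up 36.7% of the PLCE1 window and 56.0% of the PLCG2 window, beside 79.3% for PLCB3, 81.0% for PLCG1 and 76.3% for PLCD3 and a median of 58.7% over 35116 promoters. Both strands of the 5 windows were searched for 3 motifs, TGANTCA of AP-1 factors, CCGGAAG of ETS factors and GTAAACA of forkhead factors, which are not parts of each other. GTAAACA was found once, in the PLCE1 promoter, and in 3.42% of all promoters. TGANTCA and CCGGAAG, held by 7.71% and 10.3% of all promoters, were not found in the 5 windows. A match is a description of letters and no evidence of binding.

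Of the delta isoforms, which respond to calcium, PLCD1 did not pass the test in any comparison. It had group means of 5.42 to 5.70, and its changes with erlotinib were 0.16 in the GFP vector line (interval -0.13 to 0.44) and 0.03 in the pre-miR-371 line (interval -0.25 to 0.32). PLCD3 had log2 values of 6.79, 6.72 and 6.78 in the pre-miR-371 line with DMSO and 6.52, 6.64 and 6.48 with erlotinib. Those arrays did not overlap, and PLCD3 fell by 0.22 in this line (SE 0.07, limma adjusted p = 0.0205), on an x_at probe set. In the GFP vector line the change was 0.04 (interval -0.11 to 0.19), and the difference of the responses, -0.26 (SE 0.10), had an adjusted p of 0.23. The second PLCD3 probe set, which was also above background, did not pass in this line (-0.13, adjusted p = 0.444). The call was lost without pre-miR-371 DMSO replicate 1 (adjusted p = 0.0609) or replicate 3 (0.059) and without pre-miR-371 erlotinib replicate 1 (0.0611) or replicate 3 (0.076).

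**Figure D4:**
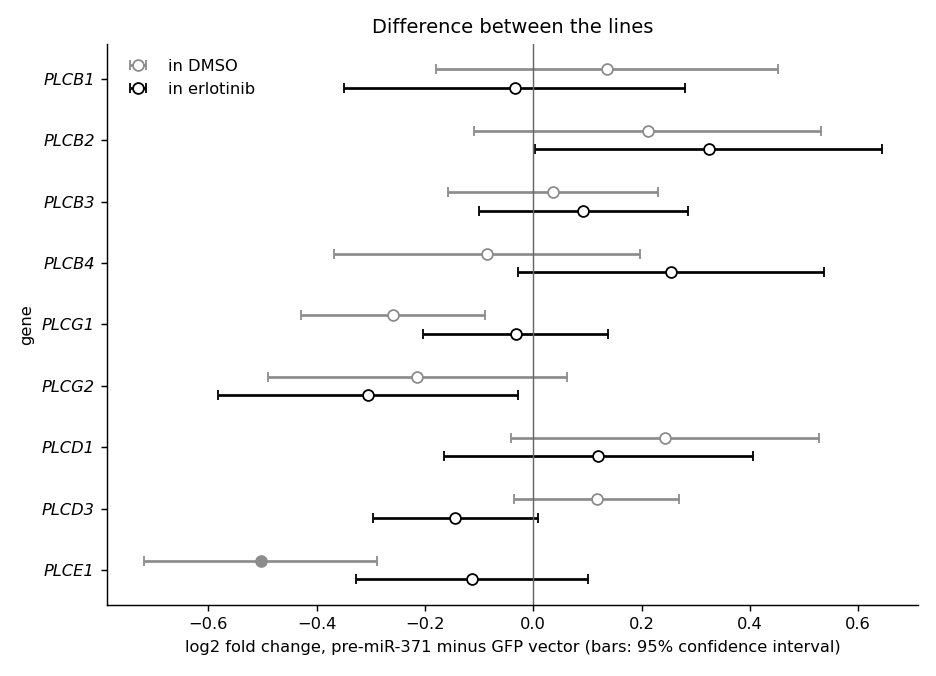
Log2 fold change of each phospholipase C gene, pre-miR-371 minus GFP vector (horizontal axis), in DMSO (grey) and in erlotinib (black), with 95% confidence intervals from limma. The filled point, PLCE1 in DMSO at -0.50, passed the adjusted p limit of 0.05 and all others did not, PLCB4 included at -0.09 and 0.25.

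PLCB4 was then set against each other isoform in 8 pairs, first for the change with erlotinib averaged over both lines. This change was -0.94 for PLCB4, and it was lower than that of each of the other 8 genes, with an exact two-sided permutation p of 0.005 in all 8 pairs, the smallest that 400 arrangements within lines can give. Against the 6 genes above background in all groups the difference was between -0.79 (PLCG1) and -2.26 (PLCE1). PLCB1 and PLCG2 were not above background in DMSO, and with their DMSO arrays set to the background level PLCB4 was lower by at least 2.28 and at least 1.23 on the log2 scale (exact permutation p = 0.005 for both). For the difference between the lines, averaged over both treatments, PLCB4 at 0.08 was apart from PLCE1 at -0.31 (difference 0.39, exact permutation p = 0.005). From PLCG1 it differed by 0.23 with an exact permutation p of 0.05, not under the limit, which became 0.28 (exact permutation p = 0.025) without pre-miR-371 DMSO replicate 2 and 0.29 (exact permutation p = 0.035) without GFP vector erlotinib replicate 1. With the mean of all probe sets of each gene it was 0.07 (exact permutation p = 0.345). PLCB4 differed the other 6 genes by -0.18 to 0.34 with exact permutation p of 0.105 to 0.87. These p-values were not adjusted for the 8 pairs. All 8 pairs share the same PLCB4 values, so that they are not independent tests. Against PLCB2, PLCB3, PLCD1 and PLCD3, which changed little with erlotinib, the difference is mainly the fall of PLCB4 itself.

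Over the 12 arrays the genes whose main probe sets were most like PLCB4 among 9684 genes that varied (SD of at least 0.2) were COPS9 (Pearson r 0.985), HOOK1 (0.983), REV3L (0.981), RNPS1 (0.981) and MICOS10 (0.980). The patterns most like PLCB1 were those of ERAP1 (r 0.997) and CCDC28A (0.996), and those most like PLCE1 were ARHGAP35 (0.996) and FBXL17 (0.995). For PLCG2 they were WDR6 (0.979) and NAGK (0.967). PLCG1 and PLCD3, which varied less, had weaker neighbours, namely FGD1 (0.903) and STX2 (0.891) for PLCG1, and TRPV3 (0.842) and NYX (0.815) for PLCD3. The arrays fall into DMSO and erlotinib sets, so that these values describe mainly the shared step with the drug, and REV3L for example changed by -1.09 and -0.63 in the GFP vector and pre-miR-371 lines.

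The isoforms act with receptors, G proteins, lipid kinases and IP3 and diacylglycerol enzymes, and 116 of 124 listed genes of this kind were measured, 82 of them above background in at least 1 group. Of all genes, 60.5% to 63.1% were above background in a single group, which is a narrower count. The part of signal level in the shares called below was not tested. With erlotinib 23 were higher and 47 lower in the GFP vector line, and 24 and 39 in the pre-miR-371 line. That is 19.8% higher and 40.5% lower in the GFP vector line, beside 26.5% and 23.4% of all genes, and 20.7% and 33.6% in the pre-miR-371 line, beside 24.8% and 22.2%. The shares of all genes apply equally to the counts for single lists. The median log2 fold change of the 116 genes was -0.09 and -0.07, beside 0.00 and -0.03 over all genes.

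**Figure D5:**
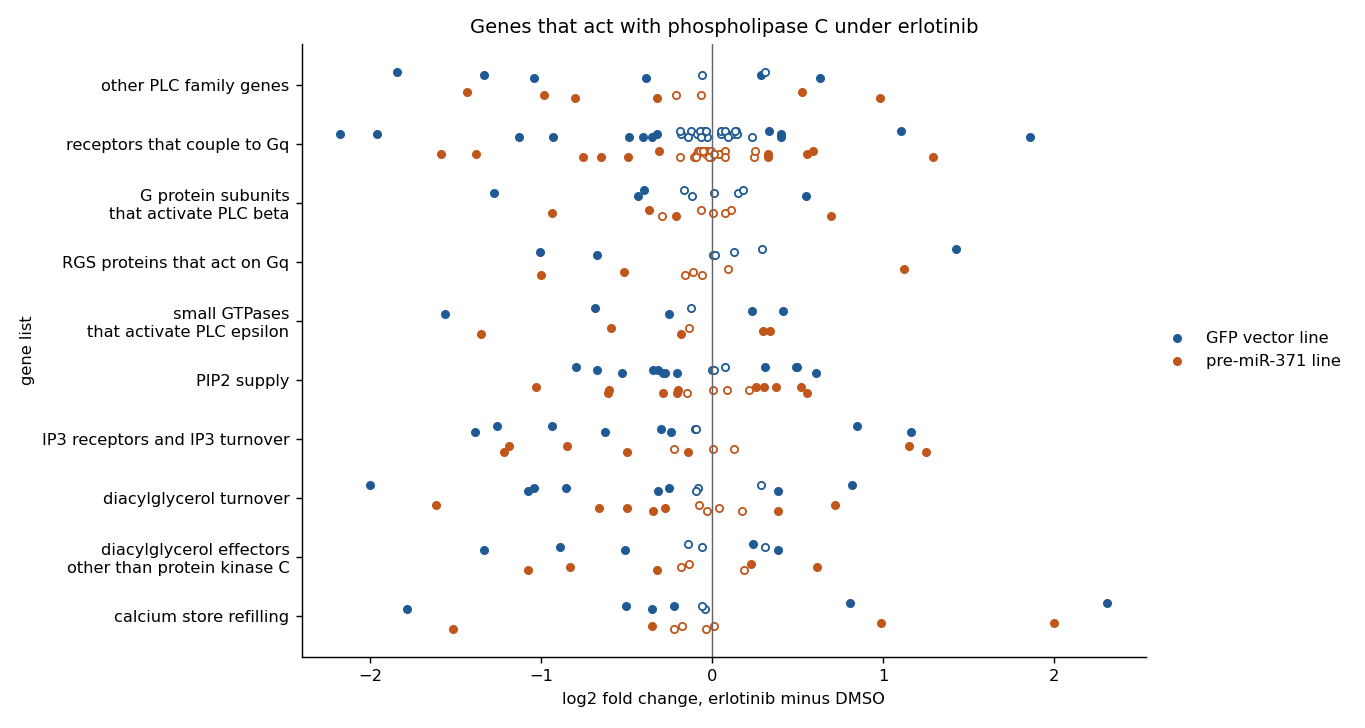
Log2 fold change, erlotinib minus DMSO (horizontal axis), of 116 genes that act with phospholipase C, by list (vertical axis), in the GFP vector line (blue, upper row of each list) and the pre-miR-371 line (orange, lower row). Each point is a gene and filled points passed the adjusted p limit of 0.05, which 70 genes did with GFP vector and 63 with pre-miR-371, with members on both sides of 0 in each list.

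Upstream of the beta isoforms, 34 receptors that couple to Gq were measured, of which 5 were higher and 8 lower in the GFP vector line with erlotinib, and 5 and 6 in the pre-miR-371 line. Only 17 of the 34 were above background in at least 1 group. P2RY1 and ADRA1A, both called lower in the GFP vector line, were not above it in any group. The same held for LPAR3, which was called lower in the pre-miR-371 line. P2RY2, a receptor for ATP and UTP, changed by -1.96 and -1.39 in the GFP vector and pre-miR-371 lines (SE 0.08 in both), and NTSR1, the neurotensin receptor, by -2.18 and -1.58 (SE 0.12). LPAR1, a receptor for lysophosphatidic acid, changed by -1.13 and -0.76 (SE 0.07). BDKRB2, the bradykinin receptor, went up by 1.86 and 1.29 (SE 0.11). All of these passed the test in both lines (limma adjusted p of at most 1.98e-06). Of 9 G protein subunits 1 was higher and 3 were lower in each line: GNAQ, the alpha subunit that activates PLCB4, rose by 0.55 and 0.70 (SE 0.07), GNA11 changed by -0.43 and -0.21, GNB4 by -1.28 and -0.94, and GNB5 by -0.40 and -0.37. Of 7 RGS proteins, which speed the switching off of Gq, RGS2 rose by 1.43 and 1.12 (SE 0.09) and RGS16 changed by -0.67 in the GFP vector line. RGS16 was also called lower with pre-miR-371, where its erlotinib level was not above background. RGS4, also called lower, and RGS8, which did not pass in any comparison, were not above background in any group.

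Upstream of PLCE1, 2 of 6 measured small GTPases were higher and 3 lower in each line. HRAS changed by -1.56 and -1.35 in the GFP vector and pre-miR-371 lines (SE 0.10), RAP1B by -0.69 and -0.59 (SE 0.06), RAP2A by -0.25 and -0.19 and RAP2B by 0.41 and 0.30. None of these genes passed the test between the lines, where PLCE1 did in DMSO.

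Among genes that supply PIP2, 15 were measured, with 4 higher and 8 lower in the GFP vector line and 5 and 6 in the pre-miR-371 line. CDIPT, which makes phosphatidylinositol, rose by 0.61 and 0.55 (SE 0.06). The transfer proteins PITPNB and PITPNC1 changed by -0.67 and -0.60 and by -0.80 and -1.03, and the lipid kinase PI4K2A by -0.53 and -0.61. Downstream, 2 of 10 genes of IP3 receptors and turnover were higher in both lines, and 6 and 5 were lower. ITPR3, an IP3 receptor, changed by -1.39 and -1.22 (SE 0.05), the phosphatase INPP1 by -1.26 and -1.19 and the kinase ITPKB by -0.94 and -0.85, while the kinase ITPKC rose by 1.17 and 1.25 (SE 0.07). Of 11 genes of diacylglycerol turnover 2 were higher in both lines, and 6 and 5 were lower. The diacylglycerol kinase DGKE changed by -2.00 and -1.62 (SE 0.08), DGKD by -0.86 and -0.66 and DGKH by -1.04 and -0.50, and DGKA rose by 0.82 and 0.72.

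Of 8 effectors of diacylglycerol other than protein kinase C, 2 were higher and 3 lower in each line, among them CHN1, a Rac GTPase-activating protein, at -1.34 and -1.08, and PRKD3, a protein kinase D, at -0.51 and -0.32. RASGRP1, an activator of Ras, was also called lower in both lines, and its erlotinib levels were not above background. PRKD1 was not above background in any group. Of 8 genes that refill calcium stores, 2 were higher in both lines, and 4 and 2 were lower. Of the calcium channel subunits ORAI3 rose by 2.31 and 2.00 (SE 0.10) and ORAI1 changed by -1.79 and -1.52 (SE 0.09). Of the calcium pumps ATP2A3 rose by 0.81 and 0.99 and ATP2A2 changed by -0.51 and -0.35. The 8 other phospholipase C family genes measured included PLCXD1 at -1.33 and -0.98 (SE 0.08) and PLCXD2 at -1.84 and -1.44 (SE 0.12), which both encode proteins with only the X domain, and PLCD4 and PLCXD3 were not above background in any group. In all, 2 of these 8 were higher and 4 lower in each line, and 4 of the 8 were above background in at least 1 group. The higher genes were PLCH2 and PLCXD3 in the GFP vector line, and PLCL1 and PLCXD3 in the pre-miR-371 line. PLCL1 was not above background in any group.

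Between the lines in DMSO, 13 of the 116 genes passed, 2 higher and 11 lower with pre-miR-371, or 1.72% and 9.48%, beside 1.62% and 3.64% of all genes. PLCXD1 was at -0.58 (SE 0.08, limma adjusted p = 0.00324), CDIPT at -0.42 (SE 0.06, adjusted p = 0.00324), NTSR1 at -0.55 (adjusted p = 0.0265), DGKH at -0.41 (adjusted p = 0.0037), P2RY2 at -0.39 (adjusted p = 0.0232) and ITPR3 at -0.25 (adjusted p = 0.0254). This count of 13 was 6 without GFP vector DMSO replicate 1 or 2, 7 without pre-miR-371 DMSO replicate 1, and 3 without pre-miR-371 DMSO replicate 2 or 3. In erlotinib 10 were higher and 11 lower, or 8.62% and 9.48%, beside 6.5% and 9.46% of all genes. CDIPT at -0.48 (limma adjusted p = 0.000445) and PITPNC1 at -0.49 (adjusted p = 0.00458) were among the lower genes. Among the higher ones were F2R, a receptor that couples to Gq, at 0.78 (SE 0.10, adjusted p = 0.000533, on an x_at probe set), PLCXD2 at 0.68 (adjusted p = 0.00326) and GNB4 at 0.43 (adjusted p = 0.00349). The receptor OXTR was lower in both treatments, at -0.40 in DMSO (adjusted p = 0.0145) and -0.49 in erlotinib (adjusted p = 0.00184). That count of 21 was 12, 13 and 12 without GFP vector erlotinib replicates 1, 2 and 3, and 13 and 10 without pre-miR-371 erlotinib replicates 2 and 3. The comparisons in each line share arrays with those between the lines.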

How the data were processed

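Total RNA of 12 samples was hybridised to Affymetrix Hgu133plus2 arrays. The authors made the deposited log2 values, 1 per probe set and array, and quantile normalization is named in their methods. RMA and affy stand in the submitters' processing notes, with versions not given in the sources used here. Values were used as deposited. Of 54675 probe sets, 41091 had 1 gene symbol, 1801 several and 11721 none, and 62 were controls. Only those with a single symbol were tested. Arrays have no read depth, and the number of arrays limits precision. Groups and replicate numbers came from the labels.

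A model with 1 mean per group was fitted to the 12 arrays in limma 3.58.1 (R 4.3.3), with moderated variances from eBayes, Benjamini-Hochberg adjustment over 19775 genes and calls at an adjusted p under 0.05. The code was tested on simulated data. PLCB4 was compared with other isoforms by exact permutation of arrays within lines or treatments. The named genes were all members, up to 4 genes of each list by smallest p in any comparison, the genes of highest correlation with members, and DUSP6. Some further genes were named outside this rule, F2R and OXTR among them. The members and lists were chosen with earlier results of these data known. Alternatives were the mean of all probe sets, every probe set, a mean log2 value of at least 6, only the groups compared, a replicate block, repeated quantile normalization, centring on medians, weights for arrays, a trended and robust variance in eBayes, the methods' t-test, a fold over 1.5 and leaving out each array. The t-test is the one in the paper's statistics section. For its arrays the paper names limma with a false discovery rate under 0.05 and a fold over 1.5, so that the fold limit is closest to its own criterion. Plots came from matplotlib 3.10.9 (Python 3.11.15).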

Additional observations from a re-analysis of the deposited data

Results flagged for a closer look

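For none of the 9 phospholipase C genes did the response to erlotinib differ between the lines past the test (limma adjusted p of at least 0.206). Among the 116 genes that act with them, 3 did, each of them with the smaller fall under pre-miR-371. That is 2.59% with a higher and 0% with a lower difference, beside 1.44% and 0.561% of all genes. P2RY2, a nucleotide receptor that couples to Gq, changed by -1.96 in the GFP vector line and by -1.39 in the pre-miR-371 line, a difference of 0.58 (SE 0.12, adjusted p = 0.0304). The diacylglycerol kinase DGKG was not above background in any group, and its fitted difference was 0.73 (SE 0.16, adjusted p = 0.0427). DGKH, of the same enzyme family, changed by -1.04 and -0.50, a difference of 0.54 (SE 0.08, adjusted p = 0.00855). For all 3 the pre-miR-371 line was lower in DMSO, which is part of the difference of responses and not a separate result. The count of 3 was 1 without pre-miR-371 DMSO replicate 2, and without GFP vector or pre-miR-371 erlotinib replicate 2 or 3.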

How the results depend on the processing

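No called value changed sign under any alternative, and the calls on PLCB1, PLCB4 and PLCE1 under erlotinib held in both lines under every alternative in which they were tested. Of the fold changes of the 9 genes, 929 kept their direction and side of the limit, 8 gained a call, 17 lost one and 43 changed sign, all of them without a call. With only genes whose mean log2 value reached 6, which leaves out PLCB1, PLCB2, PLCG2 and PLCD1, 1 gene was higher in each line with erlotinib.

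Between the lines in DMSO the count of lower genes among the 9, 1 as reported, was 2 with the limit of 6 on the mean, 0 with only the groups compared, 2 with trend and robust variance, 3 with array weights, 0 by the methods' t-test and 0 with a fold over 1.5, and 0 to 2 with 1 array left out; array weights gave 1 higher gene. The counts of genes that act with phospholipase C were 24, 4, 23, 36, 0 and 0 in the same order, and 3 to 15 with 1 array left out, beside 13. Between the lines in erlotinib they were 8 by the methods' t-test and 2 with the fold limit, and 10 to 26 with 1 array left out, beside 21. With erlotinib the fold limit left 35 of 70 and 33 of 63 such genes. Of the 9 genes, the fold limit left 1 lower gene in each line, the methods' t-test left 1 lower in the GFP vector line, and leaving out 1 array gave 1 to 2 lower in each line. The 3 genes with differing responses were 1 with every probe set tested, 9 with the limit of 6, 6 with trend and robust variance, 11 with array weights, 1 with the fold limit and 1 to 2 with 1 array left out. The line difference between PLCB4 and PLCG1 was 0.18 to 0.29 with 1 array left out, with exact permutation p of 0.025 and 0.035 without pre-miR-371 DMSO replicate 2 and GFP vector erlotinib replicate 1. The difference of responses uses all 4 groups, so that the fit of only the groups compared is the same fit, and the methods' t-test gives no such difference. The mean of all probe sets was added for the exact test of PLCB4 after the values had been seen and gave p = 0.6 and p = 0.1 (exact permutation).

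With the replicate number as a block, PLCG2 was lower in the pre-miR-371 line in erlotinib (-0.31, limma adjusted p = 0.0408), so that 1 of the 9 genes was called where none was without it; no other call on the 9 genes changed. Arrays with the same number had deviations correlated at r of -0.02 to 0.20, and the numbers were not taken to pair the samples. The causes of these shifts were not tested. Signals near background limit what can be said of PLCB1 and PLCG2 in DMSO.

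The changes of sign were as follows. With quantile normalization repeated, the line difference was 0.0019 for PLCB4 in DMSO and 0.011 for PLCG1 in erlotinib, the erlotinib change was -0.019 for PLCD1 and -0.11 for PLCD3 with GFP vector and -0.16 for PLCB2 and -0.14 for PLCD1 with pre-miR-371, and the difference of responses was 0.0058 for PLCG2. With arrays centred on their medians the erlotinib change was -0.029 for PLCD3 with GFP vector, and -0.031 for PLCB2 and -0.0089 for PLCD1 with pre-miR-371. With the mean of all probe sets the line difference in erlotinib was 0.11 for PLCB1, 0.082 for PLCG1, 0.021 for PLCD3 and 0.0035 for PLCE1, the erlotinib change with GFP vector was 0.057 for PLCB2 and -0.080 for PLCD3, the difference of responses was -0.0030 for PLCB2, and PLCB4 minus PLCB1 between the lines was -0.037. Array weights gave a line difference of -0.0012 for PLCB3 in DMSO and a difference of responses of 0.095 for PLCG2. With 1 array left out, the line difference ranged from -0.18 to 0.035 for PLCB4 in DMSO, and in erlotinib from -0.22 to 0.099 for PLCB1, -0.0092 to 0.14 for PLCB3 and -0.075 to 0.022 for PLCG1. The erlotinib change with GFP vector ranged from -0.20 to 0.027 for PLCB2 and -0.014 to 0.088 for PLCD3, and with pre-miR-371 from -0.052 to 0.13 for PLCB2, -0.12 to 0.038 for PLCB3, -0.073 to 0.018 for PLCG1 and -0.055 to 0.12 for PLCD1. The difference of responses ranged from -0.015 to 0.23 for PLCB2, -0.046 to 0.11 for PLCB3 and -0.20 to 0.020 for PLCG2. Between the lines PLCB4 minus another gene ranged from -0.052 to 0.10 for PLCB1, -0.022 to 0.091 for PLCB3 and -0.16 to 0.0073 for PLCD1. The DMSO arrays of PLCB1 and PLCG2 were set to the background level as a choice made after the values had been seen.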
